A study of Mus musculus with 12 samples.

Results

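The zinc-dependent histone deacetylases were examined in primary smooth muscle cells cultured from the mouse aorta, through the 10 genes Hdac1 to Hdac8, Hdac10 and Hdac11. The 10 members are 10 of the 29462 genes in the table, were chosen by symbol, and each stands on 1 row. They fall into class I (Hdac1, Hdac2, Hdac3 and Hdac8), class IIa (Hdac4, Hdac5 and Hdac7), class IIb (Hdac6 and Hdac10) and class IV (Hdac11). Cells came from C57BL/6J mice (CSE WT) or from mice with a global knockout of CSE (CSE KO), the enzyme cystathionine gamma-lyase, which is encoded by Cth and makes hydrogen sulfide. All cultures of both genotypes received angiotensin II, a vasoconstrictor peptide, at 1 uM for 24 h, and 6 RNA-seq libraries were made per genotype. The series asks what the loss of CSE does to the transcriptome of these cells in relation to abdominal aortic aneurysm. The age and sex of the animals, and whether libraries came from separate animals or cultures, are not given in the labels. The p-values therefore describe library-to-library spread alone, and that spread may be technical.

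Histone deacetylases remove acetyl groups from lysines, on histones and on other proteins. Class I enzymes work mostly in the nucleus as the catalytic subunits of corepressor complexes: HDAC1 and HDAC2 in NuRD, Sin3 and CoREST, and HDAC3 in the NCoR complex. Class IIa enzymes have little catalytic activity of their own. They bind and repress MEF2 transcription factors and leave the nucleus, held by 14-3-3 proteins, once kinases such as the calcium/calmodulin-dependent kinases and protein kinase D phosphorylate them; in vascular smooth muscle, angiotensin II is known to trigger this phosphorylation of HDAC5. HDAC6 is a cytoplasmic enzyme that deacetylates alpha-tubulin, cortactin and the chaperone HSP90, and HDAC10 acts on acetylated polyamines. RNA levels, as measured here, do not report the activity or the location of these enzymes.

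Values are FPKM, fragment counts scaled for gene length and library size, so levels are compared between genes per length. A gene was tested, by limma on log2(FPKM + 1), if 6 or more of the 12 libraries held 1 FPKM or more of it, and adjusted p-values are Benjamini-Hochberg values from limma over all 11831 genes tested, with 0.05 as the threshold. The genotypes differed widely: 63.5% of tested genes passed, 32.6% higher and 30.9% lower in KO. Cth itself was at most 0.08 FPKM in WT and at most 0.02 in KO, so it does not check the genotype labels. Among smooth muscle markers, Acta2 was at 120.1 ± 11.1 FPKM in WT, against 102 ± 32.3 in KO (SD, n = 6 each) and Smtn at 13 ± 0.74 and 11.7 ± 4.51, while Myh11, Tagln, Cnn1, Lmod1, Myocd and Des were too low to be tested. The epithelial cadherin gene Cdh1 was at 65 ± 1.69 FPKM in WT, against 0.86 ± 0.314 in KO. The name smooth muscle cells therefore follows the labels and is not borne out by most defining markers. Endothelial markers (Pecam1, Cdh5, Kdr and Tek) summed to at most 0.94 FPKM in any library, and the pan-leukocyte gene Ptprc and the macrophage gene Adgre1 were at or near 0. Fibroblast markers (Pdgfra, Dcn, Lum and Dpt) summed to 63.2 to 80.8 FPKM in WT and 35.9 to 184 in KO. The KO sums were 164 to 184 in replicates 1 to 4, and 41.3 and 35.9 in replicates 5 and 6. Dcn made up most of each sum and did not pass the test, and Lum was at most 0.09 FPKM. Pdgfra was at 0.86 to 1.49 FPKM in WT and 5.09 to 13.4 in KO, and Dpt at 0 to 0.17 and 7.82 to 19.2. Both reached the minimum level for testing only through the KO libraries. Macrophage-associated markers, led by Cd68 and Csf1r, summed to 2.09 to 2.93 in WT and 8.4 to 14.8 in KO. The sum of epithelial and mesothelial markers ranged over 146 to 155 for WT libraries, against 44.6 to 67.9 for KO libraries. Krt19 and, among WT libraries, Cdh1 carried most of it. Members of that list went both ways: of 5 tested, Cdh1, Krt19 and Msln were lower in KO, while Upk3b and Wt1 were higher. Mean Upk3b went from 0.448 to 2.1 FPKM, and mean Wt1 from 0.117 to 1.51. Upk3b and Wt1 reached the minimum level for testing only through the KO libraries, and Cdh1 only through the WT libraries. The part of all these cell type markers in the results below was not tested. In such bulk cultures, fewer cells of a type and less RNA per cell cannot be told apart.

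KO replicates 5 and 6 stood apart from the other KO libraries. Their correlation across genes with KO replicates 1 to 4 was 0.947 to 0.96, where KO replicates 1 to 4 correlated at 0.993 to 0.995 among themselves. Cycling-cell markers (Mki67, Top2a, Cdk1, Ccnb1 and Pcna) summed to 302.3 and 328 FPKM in KO replicates 5 and 6, against 124 to 139 in KO replicates 1 to 4 and 131 to 193 in WT. Mki67, Cdk1, Ccnb1 and Pcna were above all WT libraries in both. Top2a, at 50.8 and 55.42 FPKM, was inside the WT range of 41.02 to 59.29. Mki67 alone made up 119.95 FPKM of the sum in KO replicate 6, and Pcna 143.6 in KO replicate 5. With KO replicates 1 to 4 only, 5 members were again higher and 1 lower in KO, as with all libraries. In that setting 9119 of the 11831 genes tested passed in either direction, against 7515 with all libraries. The unchanged count of members is therefore no further support for a result about the family.

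The family moved in both directions. Hdac1, Hdac5, Hdac6, Hdac7 and Hdac8 rose in KO, Hdac3 fell, and Hdac2, Hdac4 and Hdac10 did not pass the test. Hdac11 lay below the threshold for testing by limma and was higher in KO by an exact permutation test. Of the 9 members tested, 5 were thus higher, where 32.6% of all tested genes were, and 1 was lower, where 30.9% were. With 6 of 9 called against 63.5% of all genes, the number of changed members is near the background and is no result about the family. The median difference of the 9 was 0.41 on the log2(FPKM + 1) scale, against 0.01 for all genes tested. The 9 include Hdac6 (0.72) and Hdac8 (0.44), which are X-linked, and the median of all X-linked genes tested was 0.40. The autosomal members were at -0.70, -0.03, -0.03, 0.09, 0.41, 0.58 and 0.64, against a median of -0.00 for autosomal genes tested. The median of the 9 is therefore no shift of the family as a whole. In the same 6 called members the genotypes were fully separated, with 5 of them higher (23.8% of all genes tested) and 1 lower (22.5%).

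**Figure D1:**
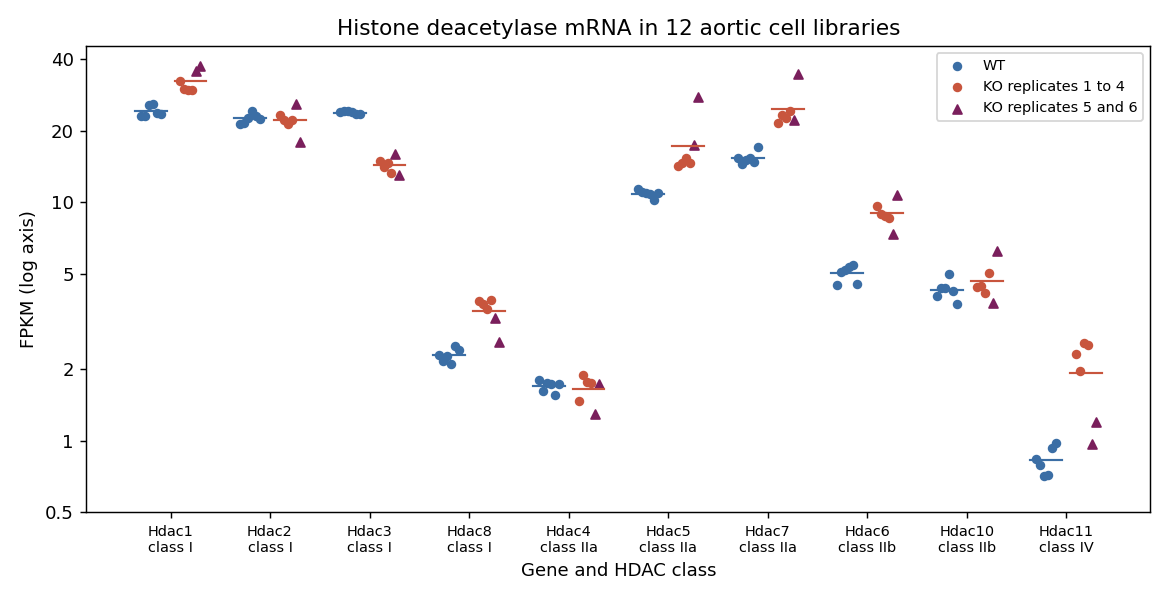
FPKM of the 10 histone deacetylase genes (log axis) in each library, with blue points for the 6 WT libraries, red points for KO replicates 1 to 4, purple triangles for KO replicates 5 and 6, and a line at each genotype's mean. Hdac3 sits at 13.02 to 16.01 in KO, below all WT libraries, while Hdac1, Hdac5, Hdac6, Hdac7 and Hdac8 in KO lie above all WT libraries.

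In WT, transcripts of 3 of the 4 class I enzymes were the most abundant of the family. Hdac1, Hdac3 and Hdac2 stood at 24.1 ± 1.24, 23.8 ± 0.293 and 22.5 ± 1.03 FPKM, and the ranges of neighbours in that order overlapped. Hdac7 (15.3 ± 0.87 FPKM) and Hdac5 (10.9 ± 0.353) followed, each apart from its neighbours. Hdac6 at 5.03 ± 0.409 and Hdac10 at 4.29 ± 0.422 overlapped. Hdac8, Hdac4 and Hdac11 came last, at 2.29 ± 0.15, 1.7 ± 0.0923 and 0.828 ± 0.11 FPKM, with no overlap between them. In KO the order became Hdac1, Hdac7, Hdac2, Hdac5, Hdac3, Hdac6, Hdac10, Hdac8, Hdac11 and Hdac4. There only Hdac3 and Hdac6, Hdac6 and Hdac10, and Hdac8 and Hdac11 were neighbours whose ranges did not overlap. Summed FPKM of the 4 class I genes was 72.7 ± 2.16 in WT and 72.2 ± 4.55 in KO. The 3 class IIa genes summed to 27.9 ± 1.05 in WT and 43.6 ± 10 in KO, and the 2 class IIb genes to 9.32 ± 0.768 and 13.7 ± 1.89. The even class I sum thus held a rise of Hdac1 and Hdac8 beside a fall of Hdac3.

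Hdac3, the catalytic subunit of the NCoR corepressor complex, was the 1 member that fell. The gene spans 37935844 to 37955016 of chromosome 18, minus strand (GRCm38, GENCODE M21). The WT libraries held 23.4 (lowest), 23.9 (median) and 24.1 (highest) FPKM, and the KO libraries 13 (lowest), 14.3 (median) and 16 (highest). All KO libraries were below all WT libraries, KO replicates 5 and 6 with 16.01 and 13.02 among them. From 23.8 ± 0.293 to 14.3 ± 1.12 FPKM, Hdac3 fell 1.66-fold (log2 difference -0.70 ± 0.053 SE, adjusted p = 9.4e-08, limma, n = 6 each). Its difference was larger in size than that of 81.3% of tested genes.

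Hdac1, a deacetylase of the NuRD, Sin3 and CoREST complexes, rose in KO. The gene spans 129516104 to 129542713 of chromosome 4, minus strand. WT libraries held 23.1, 23.6 and 25.9 FPKM as lowest, median and highest, and KO libraries 29.5, 31.2 and 37.2. KO replicates 5 and 6 were the highest, at 35.51 and 37.16, and the groups did not overlap. The rise from 24.1 ± 1.24 to 32.4 ± 3.28 FPKM was 1.34-fold (log2 difference 0.41 ± 0.067 SE, adjusted p = 0.00014, limma, n = 6 each). A processed pseudogene, Hdac1-ps, stands on a row of its own at 3.98 ± 0.286 FPKM in WT, against 5.17 ± 0.591 in KO. Of its 1395 different 50-base stretches, 80.4% also occur in Hdac1 transcripts, so reads can be split between both rows. Their sum was 1.34-fold higher in KO as well, from 28.1 ± 1.16 to 37.5 ± 3.72 FPKM.

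Hdac2, the close relative of Hdac1 in the same complexes, did not pass the test. The gene spans 36974544 to 37001889 of chromosome 10, plus strand. WT libraries held 21.3, 22.5 and 24.1 FPKM as lowest, median and highest, and KO libraries 17.9, 22.2 and 25.8. The groups overlapped, with KO replicate 5 highest and KO replicate 6 lowest of all 12 libraries. The difference was -0.03 (95% interval -0.19 to 0.13, adjusted p = 0.73, limma, n = 6 each). No 50-base stretch was shared between transcripts of Hdac1 and Hdac2, or between any other pair of members.

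Hdac8, a class I enzyme that deacetylates the cohesin subunit SMC3, rose in KO. The gene spans 102284639 to 102505359 of chromosome X, minus strand. WT libraries held 2.1, 2.28 and 2.5 FPKM as lowest, median and highest, and KO libraries 2.59, 3.66 and 3.88. KO replicates 5 and 6 were the lowest of the KO group, at 3.26 and 2.59, still above all WT libraries. The rise from 2.29 ± 0.15 to 3.48 ± 0.491 FPKM was 1.52-fold (log2 difference 0.44 ± 0.075 SE, adjusted p = 0.00019, limma, n = 6 each).

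Among the class IIa genes, which encode signal-responsive repressors of MEF2, Hdac5 and Hdac7 rose and Hdac4 did not pass. Hdac7 (chromosome 15, 97792664 to 97844502, minus strand) was at 14.5, 15.2 and 17 FPKM in WT (lowest, median and highest) and at 21.5, 23 and 34.6 in KO. KO replicate 6 was highest at 34.59, where the next KO library held 24.07, and all KO libraries were above all WT libraries. The rise from 15.3 ± 0.87 to 24.7 ± 4.93 FPKM was 1.61-fold (log2 difference 0.64 ± 0.099 SE, adjusted p = 8.8e-05, limma, n = 6 each). Hdac7 overlaps 29 bases of Slc48a1, a heme transporter gene on the opposite strand, which rose from 68.7 ± 3.66 to 119 ± 11.1 FPKM. The library kit marks strand, but strand use in counting is not stated in the labels, and reads of that stretch may not be told apart.

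Hdac5 (chromosome 11, 102194432 to 102230166, minus strand) was at 10.3, 10.9 and 11.3 FPKM in WT (lowest, median and highest) and at 14.2, 15 and 27.6 in KO. Here too KO replicate 6 was far above the others, at 27.63 against 17.4 in KO replicate 5 and 14.18 to 15.32 in KO replicates 1 to 4, and the groups did not overlap. The rise from 10.9 ± 0.353 to 17.3 ± 5.19 FPKM was 1.59-fold (log2 difference 0.58 ± 0.13 SE, adjusted p = 0.0016, limma, n = 6 each). With KO replicates 1 to 4 only the log2 difference was 0.40. KO replicate 6 was also the library with the highest Mki67, at 119.95 FPKM, and the lowest FPKM total; the part of either in its Hdac5 and Hdac7 values was not tested.

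Hdac4 (chromosome 1, 91928779 to 92195699, minus strand) was at 1.55, 1.73 and 1.8 FPKM in WT (lowest, median and highest) and at 1.29, 1.73 and 1.88 in KO. The groups overlapped, and the KO range enclosed the WT range. The difference was -0.03 (95% interval -0.17 to 0.10, adjusted p = 0.68, limma, n = 6 each). At this low level, the log2(FPKM + 1) scale understates relative changes.

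Of the class IIb genes, Hdac6 rose and Hdac10 did not pass. Hdac6, the tubulin deacetylase, spans 7930120 to 7947889 of chromosome X, minus strand. WT libraries held 4.49, 5.16 and 5.46 FPKM as lowest, median and highest, and KO libraries 7.36, 8.86 and 10.7. KO replicate 5 was lowest and KO replicate 6 highest of the KO group, and the groups did not overlap. From 5.03 ± 0.409 to 8.99 ± 1.11 FPKM, Hdac6 rose 1.79-fold, the largest rise of the 9 tested members (log2 difference 0.72 ± 0.078 SE, adjusted p = 2.8e-06, limma, n = 6 each). Hdac10 (chromosome 15, 89123307 to 89128700, minus strand) was at 3.73, 4.3 and 5 FPKM in WT (lowest, median and highest) and at 3.77, 4.42 and 6.25 in KO. Those groups overlapped and KO replicate 6 was the highest library. The difference was 0.09 (95% interval -0.11 to 0.29, adjusted p = 0.41, limma, n = 6 each).

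Hdac11, the single class IV enzyme, known to remove long fatty acyl groups from lysines, was the least abundant member in WT. The gene spans 91156665 to 91174692 of chromosome 6, plus strand. WT libraries held 0.71, 0.815 and 0.98 FPKM as lowest, median and highest. KO replicates 1 to 4 held 2.32, 1.96, 2.56 and 2.53, whereas KO replicates 5 and 6 held 0.97 and 1.2, close to the highest WT library. KO replicate 5 was the 1 KO library inside the WT range. The genotype means were 0.828 ± 0.11 and 1.92 ± 0.688 FPKM, 2.32-fold higher in KO (difference 0.64 on the log2(FPKM + 1) scale, exact permutation p = 0.00433, two-sided, over all assignments of libraries to genotypes, n = 6 each). In the authors' deposited table Hdac11 was the 1 member marked significant, a mark that went to 15% of all rows and to no row with an absolute log2 ratio under 1.

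**Figure D2:**
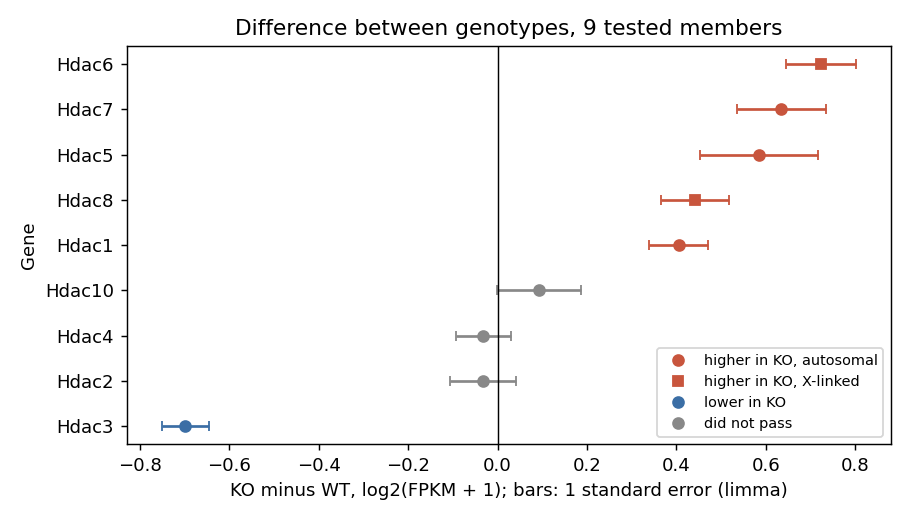
Difference between genotypes, KO minus WT, on the log2(FPKM + 1) scale for the 9 tested members; points are estimates, bars are 1 standard error from limma with 6 libraries per genotype, and squares mark X-linked genes. Hdac3 stands alone on the lower side at -0.70, and Hdac6, at 0.72, is the highest.

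The genes of Hdac6 and Hdac8 lie on the X chromosome, where the background was not that of the genome. Of 388 X-linked genes tested, 65.2% were higher and 9.79% lower in KO, whereas of 11393 autosomal genes 31.6% were higher and 31.6% lower. The median difference on the log2(FPKM + 1) scale was 0.40 for X-linked genes and -0.00 for autosomal genes. Hdac8, with 0.44, was at the 53.6th percentile of X-linked genes, and Hdac6, with 0.72, at the 73.7th. In single KO libraries the median X-linked gene was above its WT mean by 0.26 (KO replicate 6) to 0.44 (KO replicate 5). Xist, the RNA that coats an inactive X chromosome, was at most 0.04 FPKM in WT and at 2.31 to 3.53 in KO replicates 1 to 4, with 0.31 and 0.63 in KO replicates 5 and 6. The Y-linked gene Ddx3y was at 11.1 ± 0.715 FPKM in WT, against 5.72 ± 1.2 in KO, and Eif2s3y, Kdm5d and Uty were lower in KO as well, so each KO library held RNA of both Xist and Y-linked genes. These X- and Y-linked shifts moved with the genotype and cannot be told apart from it in the differences of Hdac6 and Hdac8. Against the autosomal background of 31.6% higher and 31.6% lower, 3 of the 7 tested autosomal members rose (Hdac1, Hdac5 and Hdac7) and Hdac3 fell.

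**Figure D3:**
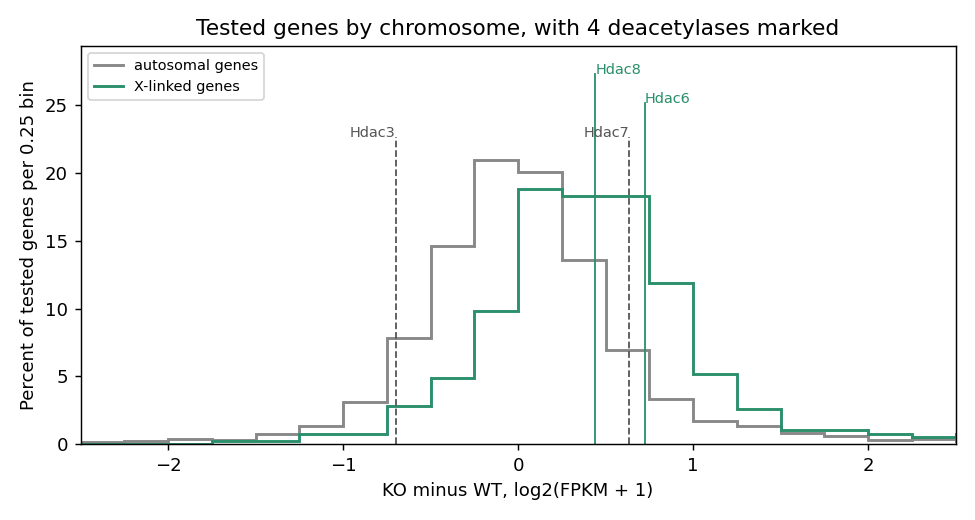
Share of tested genes (percent, in bins of 0.25) by difference between genotypes on the log2(FPKM + 1) scale, in green for 388 X-linked genes and in grey for 11393 autosomal genes, drawn from -2.5 to 2.5, with vertical lines at Hdac6 and Hdac8 (X-linked, solid) and Hdac3 and Hdac7 (autosomal, dashed). The X-linked curve is shifted to the right, and Hdac8 lies near its median of 0.40.

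Promoter windows from RefSeq (GRCm38.p6), 250 bases before to 50 after a RefSeq transcript start, matched 7 of the 10 members. Those of Hdac6 and Hdac5, which rose, are shown beside that of Hdac4, which did not pass, to set members that differ in response next to each other. The start site in the Hdac6 window is the outermost start that GENCODE gives the gene. That in the Hdac4 window is the start of a coding transcript and lies 15358 bases inside the gene, since other transcripts start further upstream. The Hdac8 window lies mostly inside that gene in GENCODE and is not shown. Capitals mark matches, on either strand, to the GC box (GGGCGG), the CCAAT box (CCAAT), the TATA box (TATAAA) and the E-box (CACGTG), and the sequences run 5′ to 3′ along the gene.
Hdac6, chrX:7947840-7948139, minus strand: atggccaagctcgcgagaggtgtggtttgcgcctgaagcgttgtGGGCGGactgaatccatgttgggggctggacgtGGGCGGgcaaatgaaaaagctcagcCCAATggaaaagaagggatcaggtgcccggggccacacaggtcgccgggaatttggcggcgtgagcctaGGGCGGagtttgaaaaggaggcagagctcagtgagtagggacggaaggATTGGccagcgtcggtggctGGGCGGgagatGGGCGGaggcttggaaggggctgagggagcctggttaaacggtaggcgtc
Hdac5, chr11:102230123-102230422, minus strand: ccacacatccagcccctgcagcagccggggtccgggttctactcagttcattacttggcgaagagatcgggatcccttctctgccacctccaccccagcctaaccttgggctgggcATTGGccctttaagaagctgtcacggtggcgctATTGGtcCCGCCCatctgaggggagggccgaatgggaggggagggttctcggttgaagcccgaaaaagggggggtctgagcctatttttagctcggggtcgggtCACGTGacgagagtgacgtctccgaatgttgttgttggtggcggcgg
Hdac4, chr1:92180292-92180591, minus strand: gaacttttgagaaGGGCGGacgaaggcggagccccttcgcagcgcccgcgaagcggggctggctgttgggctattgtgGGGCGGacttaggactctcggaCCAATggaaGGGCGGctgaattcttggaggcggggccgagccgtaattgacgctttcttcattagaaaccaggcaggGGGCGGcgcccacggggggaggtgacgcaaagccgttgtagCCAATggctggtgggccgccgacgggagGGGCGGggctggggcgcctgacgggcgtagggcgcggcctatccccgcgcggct

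The windows of Hdac6, which rose, and Hdac4, which did not pass, held the same count of 5 GC boxes and 2 CCAAT boxes. Hdac5 held 1 GC box, 2 CCAAT boxes and 1 E-box. Among all 32851 windows of this length, 35.7% held a GC box, 37.4% a CCAAT box, 13.6% a TATA box and 7.15% an E-box. The windows of Hdac6, Hdac5 and Hdac4 were 62%, 60.7% and 68% G or C with 20, 18 and 32 CpG dinucleotides, against medians of 52.7% and 7 over all windows. These matches describe the letters only.

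The balance between close relatives shifted, as measured by the ratio of their FPKM inside each library, which does not depend on how a library was scaled. Hdac1 to Hdac2 went from 1.07 ± 0.0321 in WT to 1.49 ± 0.291 in KO, with KO replicate 6 at 2.08 and the other KO libraries between 1.33 and 1.4. Hdac5 to Hdac4 went from 6.43 ± 0.229 to 10.7 ± 3.33 and Hdac7 to Hdac4 from 9.06 ± 0.532 to 15.2 ± 2.96. Within class IIb, Hdac10 to Hdac6 fell from 0.854 ± 0.0575 to 0.52 ± 0.0562. In each of the 4 ratios KO and WT libraries were fully separated (exact permutation p = 0.00216 for each, two-sided, 0.00216 also after Benjamini-Hochberg adjustment over the 4 ratios, and the smallest value that 6 against 6 libraries allow). The differences in mean log2 ratio were 0.45, 0.68, 0.72 and -0.72 in the same order. The last ratio sets an X-linked gene against an autosomal one. Each ratio also sets a called member against 1 that did not pass, so its separation restates those calls and is no further support. Of all genes tested, 23.8% were fully separated and higher in KO, and 22.5% fully separated and lower.

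**Figure D4:**
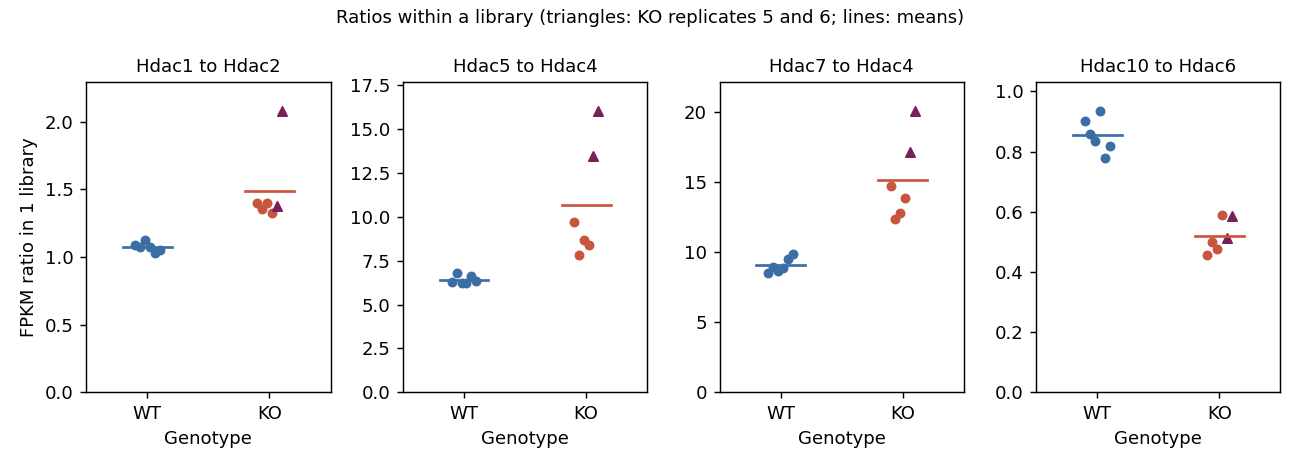
Ratio of FPKM between 2 members inside each library (linear axes from 0), in blue for WT, red for KO replicates 1 to 4 and purple triangles for KO replicates 5 and 6, with lines at the means. Hdac1 to Hdac2, Hdac5 to Hdac4 and Hdac7 to Hdac4 are higher in all KO libraries, and Hdac10 to Hdac6 is lower in all.

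Among subunits of the class I complexes, 10 of 37 tested were higher in KO and 14 lower, with a median difference of -0.12, against 0.01 for all genes tested. The shares of 27% and 37.8% are near those of all genes. Of the 6 CoREST genes listed, 4 fell, where 30.9% of all tested genes did: Rcor2, Rcor3, Kdm1a and Phf21a. Rcor2, a scaffold that joins HDAC1 or HDAC2 to the histone demethylase encoded by Kdm1a, was at 8.29 to 9.74 FPKM in WT and 3.05 to 5.8 in KO (2.25-fold lower, log2 difference -1.02 ± 0.11 SE, adjusted p = 3.1e-06, limma, n = 6 each). Rcor3, a related scaffold, fell from 1.85 ± 0.105 to 0.98 ± 0.171 FPKM, and Kdm1a from 13 ± 0.83 to 9.78 ± 0.792. With 0.74 to 1.16 FPKM in KO, Rcor3 met the minimum level for testing only through the WT libraries. Its call is therefore no support for a change of the group. Hmg20b was higher in KO, at 11.1 ± 0.954 and 13.3 ± 1.68 FPKM, and Rcor1 did not pass. In all 4 that fell, KO values lay below all WT values, as they did in 22.5% of all tested genes; these genes were singled out after their values were seen.

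NuRD genes, which join a deacetylase to a chromatin remodeler, moved both ways. Mbd3 rose from 36.7 ± 1.39 to 67.3 ± 13.6 FPKM (1.84-fold, adjusted p = 1.3e-05, limma, n = 6 each), and Cdk2ap1 from 18.8 ± 1.22 to 33.8 ± 6.73. The remodeler gene Chd4 fell from 73.8 ± 2.86 to 50.1 ± 8.74 FPKM, and Mta1, Mta3, Gatad2a and Gatad2b fell as well. In all, 3 of 10 NuRD genes rose and 5 fell, where 32.6% of all tested genes rose and 30.9% fell. The histone-binding subunit gene Rbbp7, which is X-linked, rose from 70.9 ± 3.8 to 105 ± 13.7, while its relative Rbbp4 did not pass. Of 13 Sin3 genes, 4 rose, among them Suds3 from 4.94 ± 0.134 to 8.33 ± 1.44 FPKM, and 3 fell.

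The NCoR complex is the one that holds HDAC3, the member that fell. Its 4 listed genes gave 1 rise and 2 falls, where 32.6% of all tested genes rose and 30.9% fell. Tbl1x, an X-linked subunit, rose from 22.9 ± 0.526 to 30.7 ± 1.46 FPKM (adjusted p = 4.1e-06, limma, n = 6 each), and its autosomal relative Tbl1xr1 fell from 7.96 ± 0.43 to 4.66 ± 0.898. The corepressor gene Ncor1 was called by a smaller margin. Ncor1 averaged 23 ± 0.769 FPKM across WT libraries and 18.9 ± 4.72 across KO libraries (adjusted p = 0.039). In KO replicate 6 it was highest of the KO group, at 28.03 FPKM. The call of Ncor1 was lost under 13 of the 25 alternatives, with an adjusted p between 0.0535 and 0.0925 in those. Gps2 did not pass, and neither did the 2 MiDAC genes Trerf1 and Dnttip1.

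Among genes of partners and kinases of class IIa enzymes, MEF2 genes included, 5 of 19 tested were higher in KO and 8 lower. These shares of 26.3% and 42.1% are near the 32.6% and 30.9% of all tested genes. Genes of 14-3-3 proteins, the cytoplasmic anchors, gave 4 rises of 6 tested, in Ywhah, Ywhaz, Ywhag and Ywhaq. Ywhah went from 23.6 ± 0.647 to 37.3 ± 5.58 FPKM and Ywhaz from 86.1 ± 4.22 to 121 ± 10.2. Ywhab and Ywhae did not pass. All 4 tested genes of calcium/calmodulin-dependent kinases fell: Camk1, Camk1d, Camk2d and Camk2g. Camk1d fell 3.9-fold, from 10.3 ± 0.454 to 2.64 ± 0.362 FPKM (log2 difference -1.64 ± 0.068 SE, adjusted p = 1.9e-10, limma, n = 6 each). Sik1, a salt-inducible kinase that phosphorylates class IIa enzymes, fell 2.83-fold from 13.8 ± 0.601 to 4.86 ± 0.732. The other kinase genes listed with it, Sik2, Sik3 and Mark2, did not pass.

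Protein kinase D genes did not move as a group. Prkd1 was listed at 0 in 5 WT libraries and at 0.01 FPKM in WT replicate 3, and it was at 2.95 to 5.44 FPKM in KO. It met the minimum level for testing only through the KO libraries, so its call is no support for a change of the group. Prkd3 fell from 4.81 ± 0.285 to 3.48 ± 0.34 FPKM, and Prkd2 did not pass. Of the MEF2 genes, Mef2a fell from 4.42 ± 0.206 to 3.03 ± 0.657 FPKM and Mef2d from 12.4 ± 0.379 to 10.9 ± 0.962. Mef2c was at most 0.01 FPKM in WT and 0.25 in KO, and Mef2b was at most 0.11 FPKM in WT and listed at 0 in all KO libraries. Of 6 genes known as MEF2 targets in other cells, Jun and Mmp10 reached the minimum level for testing. Jun, a subunit of AP-1, rose from 5.49 ± 0.593 to 13.5 ± 1.88 FPKM (adjusted p = 1.2e-07, limma, n = 6 each). Mmp10, a stromelysin, stood at 0.128 ± 0.0937 FPKM among WT libraries and 24 ± 4.47 among KO libraries, and it met that minimum only through the KO libraries, so it had to be higher there.

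Of 13 tested genes of HDAC6 substrates and partners, 9 were higher and 3 lower in KO, against 32.6% and 30.9% of all tested genes. Their median difference was 0.30, against 0.01 for all genes tested. All 4 alpha-tubulin genes rose. Tuba1a went from 117 ± 7.49 to 289 ± 62.3 FPKM (2.46-fold, adjusted p = 3.3e-07, limma, n = 6 each), and Tuba1b from 259 ± 29.8 to 494 ± 214. KO replicates 5 and 6 held the most of each, with 409.98 and 301.27 FPKM of Tuba1a, as they did of the summed cycling-cell markers. The part of cycling in these values was not tested. Tubulin genes are near-identical in places, so their reads may be split between them. Atat1, the enzyme that acetylates alpha-tubulin and so opposes HDAC6, fell from 3.76 ± 0.434 to 2.56 ± 0.586 FPKM (adjusted p = 0.0035, limma, n = 6 each). The 2 HSP90 genes parted, with Hsp90aa1 rising from 141 ± 8.53 to 259.8 ± 62.4 and Hsp90ab1 falling from 1238 ± 13.9 to 727 ± 136. Vcp, a partner of HDAC6 in handling ubiquitinated proteins, rose from 84.1 ± 2.93 to 104 ± 6.74, and Bag3 rose from 28.5 ± 0.926 to 38.2 ± 5.66. Cttn, which encodes cortactin, averaged 64.2 ± 0.9 FPKM across WT and 76.8 ± 9.38 across KO libraries (adjusted p = 0.013), a call lost with quantile normalization (0.21) and with the exact rank-sum test (0.094). Plaa (adjusted p = 0.049) lost its call under 16 alternatives. Sqstm1, which encodes the ubiquitin receptor p62, fell from 270.1 ± 9.22 to 242 ± 18 (adjusted p = 0.021), a call lost with the replicate number as a block (0.081), without WT replicate 5 (0.052) and with quantile normalization (0.22).

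**Figure D5:**
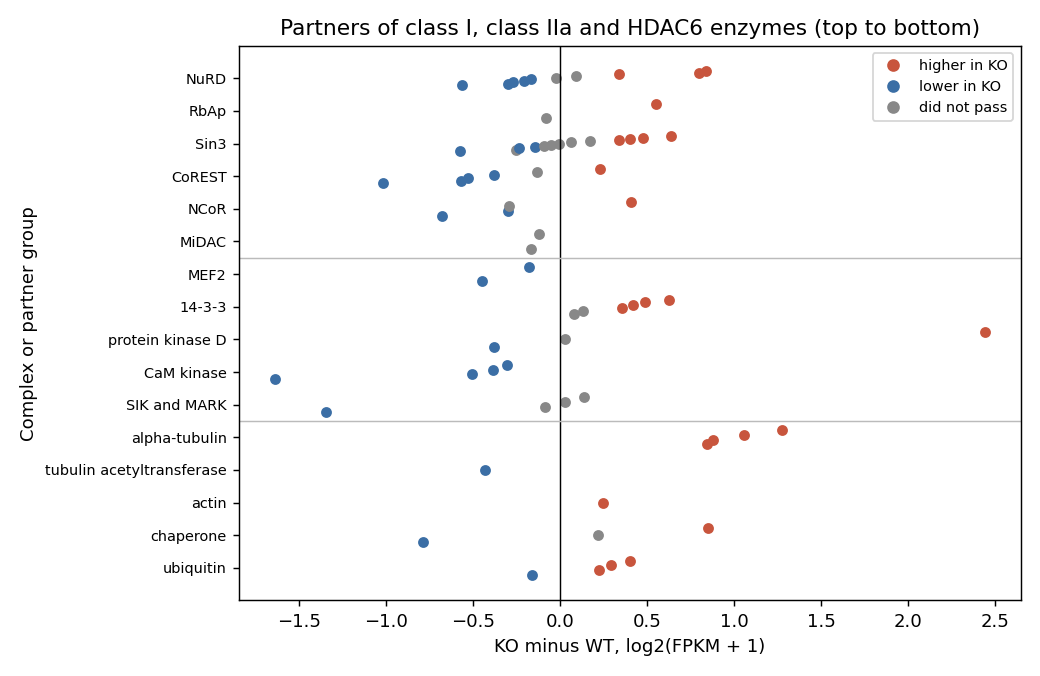
Difference between genotypes, KO minus WT on the log2(FPKM + 1) scale, of each tested gene in the complexes of class I enzymes (top block), the partners and kinases of class IIa enzymes (middle block) and the substrates and partners of HDAC6 (bottom block); red is higher in KO, blue lower, and grey did not pass. The 4 alpha-tubulin genes are all to the right and the 4 calcium/calmodulin-dependent kinase genes all to the left.

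Among the genes whose profile over the 12 libraries was most like that of Hdac3, by the root mean square distance of centred log2(FPKM + 1) values, were Ilrun (0.0553) and Snx5 (0.0578). Among those most like Hdac6 were Gga1 (0.0821) and Pla2g6 (0.0843).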

How the data were processed

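RNA-seq of 12 libraries was summarised by the authors as FPKM per gene in 1 deposited table of 29462 genes, with 402 genes at 0 in all libraries. Named without a role in the submitters' processing notes are the build mm9 and the tools StringTie 1.3.4d, HISAT2 2.0.4 and cutadapt 1.9; strand use in counting is not stated there. The deposited table also gives the authors' fold ratio and its log2, both WT over KO, and p-values and q-values. Of the rows the authors marked significant, none had an absolute log2 ratio below 1 or a q-value above 0.05.

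An FPKM value depends on all genes in its library, and read depth is unknown. The main test used limma 3.58.1 (R 4.3.3; empirical Bayes with trend, all 12 libraries) on log2(FPKM + 1), for genes that reached 1 FPKM in 6 or more libraries, with Benjamini-Hochberg adjustment over all genes tested and 0.05 as the threshold. Fold changes are ratios of mean FPKM, and differences on the log2(FPKM + 1) scale understate changes of low genes. Hdac11 and the ratios were compared by exact permutation tests over all assignments. The scripts were tested on simulated data. Groups came from the sample labels; no 2 libraries had more than 2.35% of tested genes within 0.01 FPKM of each other.

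Positions are from GENCODE M21 (GRCm38), which matched 29384 of 29462 gene IDs, and promoters from RefSeq. Shared sequence was counted in stretches of 50 bases. The text names every member, the up to 6 called genes with the smallest p of each partner list, all genes of subgroups of 5 or fewer, the markers and, of the 3 genes most like Hdac3 and Hdac6 each, those given in the text. A few items that this rule or the lists would hold are not reported here. The other CoREST, NuRD, 14-3-3 and calcium/calmodulin-dependent kinase genes, Hdac1-ps and Slc48a1 were named after their values were seen. Members and lists were chosen with earlier results of these data known. Alternatives covered pseudocount, filter, scaling, test, library weights, replicate number, libraries left out and autosomal genes only.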

Additional observations from a re-analysis of the deposited data

Results flagged for a closer look

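Of 110 groups of 6 values (members, named partner genes and ratios, by genotype), 25 held a library whose gap to its nearest neighbour was over 0.625 of the group's range; chance flags about 1 in 20 groups. KO replicate 6 was that library in 14 of the 25, KO replicate 5 in 4 and a WT library in 7.

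In KO replicate 6, Hdac5 stood at 27.63 FPKM (next library 17.4), Hdac7 at 34.59 (24.07) and the ratio of Hdac1 to Hdac2 at 2.08 (1.4). That library was also highest of the KO group for Rcor2 (5.8 FPKM), Bag3 (49.58), Ncor1 (28.03), Gps2 (22.03), Trerf1 (3.99) and Sik3 (8.76). It was lowest for Ywhaz (100.73), Ywhag (49.97), Vcp (90.44), Prkd3 (2.83) and Plaa (8.34).

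KO replicate 5 was highest for Tuba1a (409.98 FPKM), Rbbp4 (23.15) and Rbbp7 (130.94) and lowest for Sik1 (3.48). Among WT libraries, replicate 6 was highest for Hdac7 (16.98), replicate 2 for Rcor2 (9.74), replicate 4 for Tuba1a (131.11) and replicate 1 for Tbl1xr1 (8.81). WT replicate 3 was highest for Camk1d (11.12), Dnttip1 (17.9) and Prkd1 (0.01, with the other 5 listed at 0).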

How the results depend on the processing

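Each member kept its direction of change where called, and its side of the threshold, under every alternative run for it (18 to 25 each). Hdac3 ranged from -0.80 to -0.67, Hdac6 from 0.68 to 0.83, Hdac5 from 0.40 to 0.64, Hdac7 from 0.52 to 0.68, Hdac1 from 0.27 to 0.44 and Hdac8 from 0.42 to 0.59. With a minimum of 5 FPKM, which tests fewer genes, 2505 genes were higher and 2270 lower, and 5 class IIa partners were lower. With autosomal genes only, 3 members were higher, since Hdac6 and Hdac8 then leave the test. With no filter on low values, 5 MEF2 targets and 6 members were higher. In that setting 10031 of 29060 genes passed in either direction. The MEF2 targets outside the main test were low. Nr4a1 averaged 0.353 FPKM in WT and 1.46 in KO, Klf2 0.525 and 0.887, and Ppargc1a 0 and 0.07. Slc2a4 was at most 0.03 FPKM in any library. The larger count is therefore no support for a rise of MEF2 targets as a group. Same-numbered libraries did not deviate together (correlations -0.27 to -0.06), which gave no sign of pairing by number. That cannot exclude a pairing, since KO replicates 5 and 6 stood apart from the other KO libraries. The labels state no pairing. With the replicate number as a block, 3610 genes were higher and 3349 lower, and 5 members were higher and 1 lower. The ratios then gave p = 0.0312 each by exact permutation within pairs, the smallest value that 6 pairs allow. Unknown read depth leaves the counting error of low members such as Hdac4 and Hdac11 unmeasured.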
